A study of Monodelphis domestica with 2 samples.

Results

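Astrocytes were described in V1, the primary visual cortex, of the marsupial Monodelphis domestica (the gray short-tailed opossum), as the nuclei that the deposited annotation labels with the subclass Astro. They numbered 2089 of 32764 nuclei with a subclass and of 8267 labelled non-neuronal nuclei. They came from 2 untreated adult males that make up 1 group, animal 1 at 1.5 years and animal 2 at 2 years of age. Tissue of both hemispheres was freed of the underlying white matter, pooled by animal and frozen, and nuclei were sorted by a DNA stain before droplet-based single-nucleus RNA sequencing. Each suspension gave 2 libraries, 1A and 1B in animal 1 and 2A and 2B in animal 2, which count as 1 replicate. The animals were handled by different experimenters, so that animal, age and handling cannot be told apart. The study used these data to set the cell types of opossum V1 beside those of mouse, and mouse nuclei were not analysed here. Astro was set beside the other non-neuronal subclasses, which are oligodendrocytes (OD, 4047 nuclei), oligodendrocyte precursor cells (OPC, 1343 nuclei), microglia (Micro, 723 nuclei) and endothelial cells (Endo, 65 nuclei).

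Astrocytes are the glia that surround synapses and blood vessels. They take up glutamate and GABA after release, turn glutamate into glutamine for neurons, buffer potassium and water, store glycogen, and are coupled to each other by gap junctions. Their nuclei are commonly recognised by AQP4, a water channel of the endfeet on vessels, ALDH1L1, a folate enzyme, GFAP, an intermediate filament protein, SLC1A3, a glutamate transporter, and GJA1, the main connexin of their gap junctions.

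Astro made up 27.2% of labelled non-neuronal nuclei in animal 1 (1273 of 4688, exact 95% binomial interval 25.9 to 28.5%) and 22.8% in animal 2 (816 of 3579, 21.4 to 24.2%). Among all labelled nuclei the shares were 7.93% and 4.88%. The 4 libraries held between 55625042 and 69706055 UMIs in 7749 to 10751 barcodes, of which 614, 659, 341 and 475 were Astro nuclei in 1A, 1B, 2A and 2B. The shares were not distinguished between libraries 1A and 1B or between 2A and 2B, where the lowest p of 4 Fisher's exact tests (two-sided) was 0.0902, or 0.320 after Benjamini-Hochberg adjustment. The median depth was 2522 UMIs (unique molecular identifiers, which count RNA molecules rather than reads) and 1383 genes per Astro nucleus in animal 1, and 2781 UMIs and 1485 genes in animal 2, above the 1924 and 1909 UMIs of OD and the 1429.5 and 1483 of Micro and close to the 2551 and 2619 of OPC. No barcode was labelled Astro in more than 1 library, and 12 barcodes of Astro nuclei recurred as a labelled nucleus of another library. Intervals here cover counting error only.

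Counts of each subclass were summed per animal and scaled to counts per 1000000 of that sum (CPM), so a value is a gene's share of the RNA counted in the subclass. The sums held 3505999 and 2470639 UMIs in Astro, against 530271 and 627148 in Micro and 48514 and 57864 in Endo. A value pair below gives animal 1 first and animal 2 second. The labels come from clusters of these same counts, and there are 2 animals, so no test was run between subclasses. A gene was called higher in Astro where it reached at least 2 times the highest of OD, OPC and Micro in both animals, and lower where the lowest of the 3 reached at least 2 times Astro in both. In a denominator each sum was taken as at least 3 counts, which in Micro is 5.66 and 4.78 CPM, so that ratios of genes near 0 elsewhere are limited by the depth of Micro. Endo is given apart, since 3 counts there are 61.8 and 51.8 CPM.

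All 5 identity markers were higher in Astro in both animals. ALDH1L1 had 411 and 378 CPM in Astro, and in OD, OPC and Micro it did not exceed 2.49 CPM. GFAP had 291 and 191 CPM in Astro and 5.69 and 6.22 CPM in OPC, the next highest in both animals. GJA1 had 375 and 488 CPM in Astro and 20.7 and 15.9 CPM in Micro, a ratio of 18.1 and 30.6. The sums of these 3 genes were thus higher in Astro than in OD, OPC and Micro of both animals. Each value is a sum over nuclei, so it cannot show whether nuclei of the subclasses overlap. AQP4 had 197 and 201 CPM in Astro and 27.5 and 9.95 CPM in OPC, a ratio of 7.16 and 20.2, so the Astro level was close in the animals and the OPC level was not. SLC1A3 was the least separated marker. It had 3374 and 3076 CPM in Astro, 391 and 339.7 CPM in OPC and 1543 and 987 CPM in Micro, and was 2.19 and 3.12 times as high in Astro as in Micro. All 5 markers were thus highest in the nuclei labelled Astro, and the plot of identity markers shows the 2 animals side by side.

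**Figure D1:**
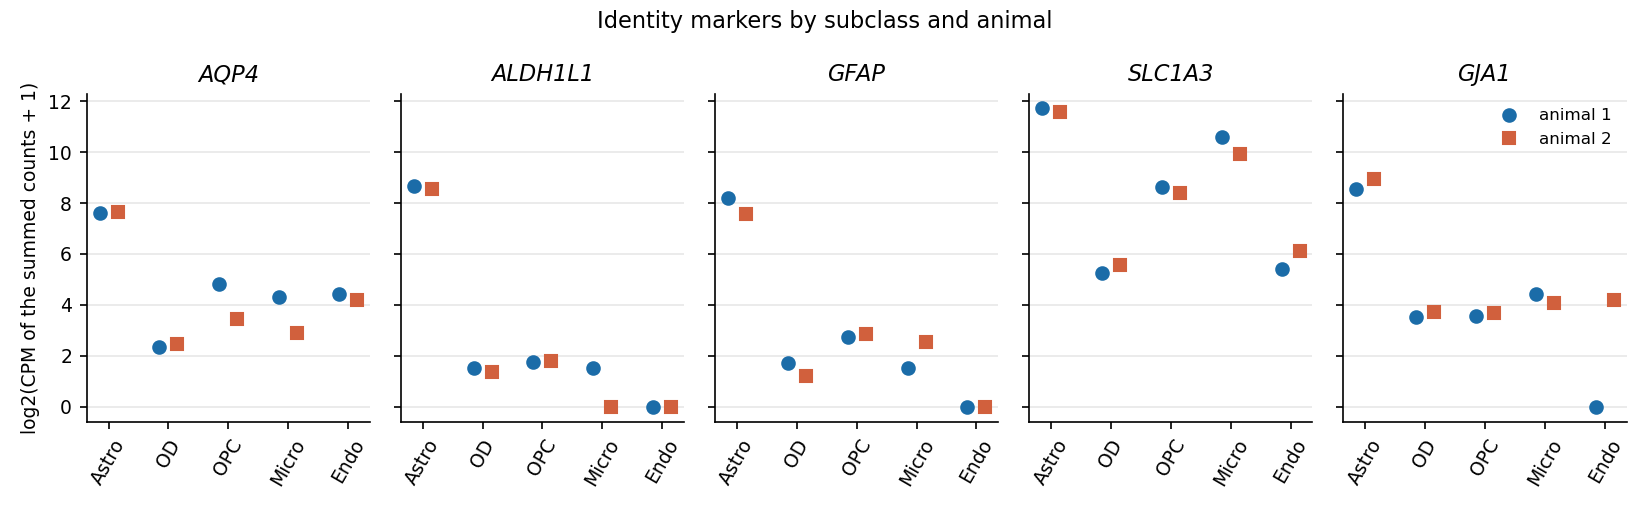
Level of the 5 astrocyte identity markers in the 5 non-neuronal subclasses, as log2(CPM + 1) of the summed counts, with circles for animal 1 and squares for animal 2. Astro is highest in every panel, and SLC1A3 is also present in Micro (1543 and 987 CPM) and OPC (391 and 340 CPM).

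At the level of single nuclei the markers were seen unevenly. To compare nuclei at 1 depth, each nucleus was thinned to 1000 UMIs, and no Astro nucleus was shallower than that. SLC1A3 then had a UMI in 92.9 and 91.3% of Astro nuclei, 63.7 and 47% of Micro, 30.9 and 26.9% of OPC and 4.08 and 5.04% of OD nuclei, so it was common in Micro as well. GJA1 was seen in 29.5 and 36.5%, ALDH1L1 in 31.3 and 30.5%, GFAP in 19.5 and 15.8% and AQP4 in 18.3 and 18.8% of Astro nuclei. In OD, which should lack these 4 genes, the shares were between 0.0566% and 1.47%. SLC1A2, the main glutamate transporter of the adult forebrain, was found in 99.9% and 100% of Astro nuclei and 65.4 and 59.2% of OPC nuclei. GRM3, a metabotropic glutamate receptor, was found in 92.2 and 92.8% of Astro and 3.36 and 3.34% of OPC nuclei. Without thinning the shares were higher, at 60.3 and 61.9% for ALDH1L1 and 37.3 and 32.8% for GFAP. At full depth 2076 of 2089 Astro nuclei had at least 1 of the 5 identity markers, 1387 had at least 3 and 145 had all 5. Among OD, OPC, Micro and Endo nuclei 11 of 6178 had at least 3. At least 1 was seen in 466 OD nuclei (11.5%), 794 OPC nuclei (59.1%), 460 Micro nuclei (63.6%) and 8 Endo nuclei (12.3%), so having at least 1 was common in OPC and Micro too.

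Of 9014 genes with a mean of at least 10 CPM over Astro, OD, OPC and Micro in both animals, 504 (5.59%) were called higher in Astro and 123 (1.36%) lower. Of the higher genes 356 had a symbol, and of the lower genes 91. With Endo added to the comparison, at its low depth, 211 genes remained higher and 57 lower. The higher genes took up 20.7% and 19.95% of all Astro UMIs. The median gene had a log2 ratio of -0.69 and -0.67 to the highest of the 3 other subclasses. The 25 genes with a symbol and the largest ratio in both animals, shown in the plot of leading genes, were led by ALDH1L1 with a ratio of 72.7 and 79.1. The denominator of that ratio was the CPM that 3 counts would give in Micro, in both animals, since ALDH1L1 had fewer counts there, so the depth of Micro sets its size. With the A or the B library of each animal alone its mean log2 ratio was 5.24 or 5.25, beside 6.24 with both. In 13 of the 25 genes the ratio rests on such a limit in at least 1 animal. They were ranked by the same values that formed the clusters, so their order is a description.

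Among these 25 genes, SLC39A12, a zinc transporter, had 353 and 312 CPM in Astro with a ratio of 62.5 and 65.2. SLCO1A2, an organic anion transporter, had 167 and 139.6 CPM, and SLC13A3, a carrier of dicarboxylates, 209 and 225 CPM. SLC7A2, a carrier of cationic amino acids, and SLC15A2, a peptide transporter, had 144 and 132 CPM and 123 and 138 CPM. In OD, OPC and Micro these 5 genes stayed at 5.66 CPM or less. SLC25A48, a mitochondrial carrier, had 362 and 179 CPM, and it was the one gene of these 25 whose level in Astro differed 2-fold between the animals. ATP13A4, a P-type ATPase, had 171 and 202 CPM with a ratio of 30.2 and 27.1.

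GRM3 had 3971 and 3713 CPM in Astro and at most 84.5 CPM in the other 3 subclasses, a ratio of 66 and 43.9. ADRA1D, an alpha-1 adrenergic receptor, had 250.4 and 261 CPM with a ratio of 33 and 46.7, and BMPR1B, a receptor for bone morphogenetic proteins, 887 and 861 CPM with a ratio of 26 and 33.7. GLI2, a transcription factor of the Hedgehog pathway, had 616 and 582 CPM and a ratio of 49.3 and 52.1. The lowest of these 8 ratios was that of BMPR1B in animal 1. HES5, a Notch target, had 219 and 302 CPM, WWTR1, a coactivator of the Hippo pathway, 203 and 204 CPM, and ID4, an inhibitor of basic helix-loop-helix factors, 160.0 and 183 CPM. MAOB, the monoamine oxidase of astrocytes, had 437 and 422 CPM with a ratio of 57.6 and 53, and MLC1, a membrane protein of the endfeet, 648 and 672 CPM with a ratio of 38.2 and 42.1.

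ADAMTS18 and ADAMTS3, metalloproteases of the extracellular matrix, had 269 and 326 CPM and 604 and 499 CPM. TFPI, an inhibitor of coagulation, had 250.4 and 271 CPM, CXCL14, a chemokine, 339 and 421 CPM, and PEAR1, a receptor first described on platelets, 164 and 144 CPM. PDLIM3, a partner of actin filaments, had 191 and 135 CPM and RASSF9 138 and 127 CPM. Some of the 25 were also counted in Endo, which the ranking did not use. WWTR1 had 412 and 277 CPM there, from 20 and 16 UMIs, which is above its level in Astro. RASSF9 was also above its level in Astro in both animals, with 186 and 138 CPM from 9 and 8 UMIs. PEAR1 had 227 and 69.1 CPM in Endo from 11 and 4 UMIs, above Astro in animal 1 and below it in animal 2. TFPI (165 and 156 CPM, 8 and 9 UMIs), MAOB (124 and 104 CPM, 6 and 6 UMIs) and GRM3 (61.8 and 207 CPM, 3 and 12 UMIs) were lower in Endo than in Astro in both animals. All of these are few counts.

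**Figure D2:**
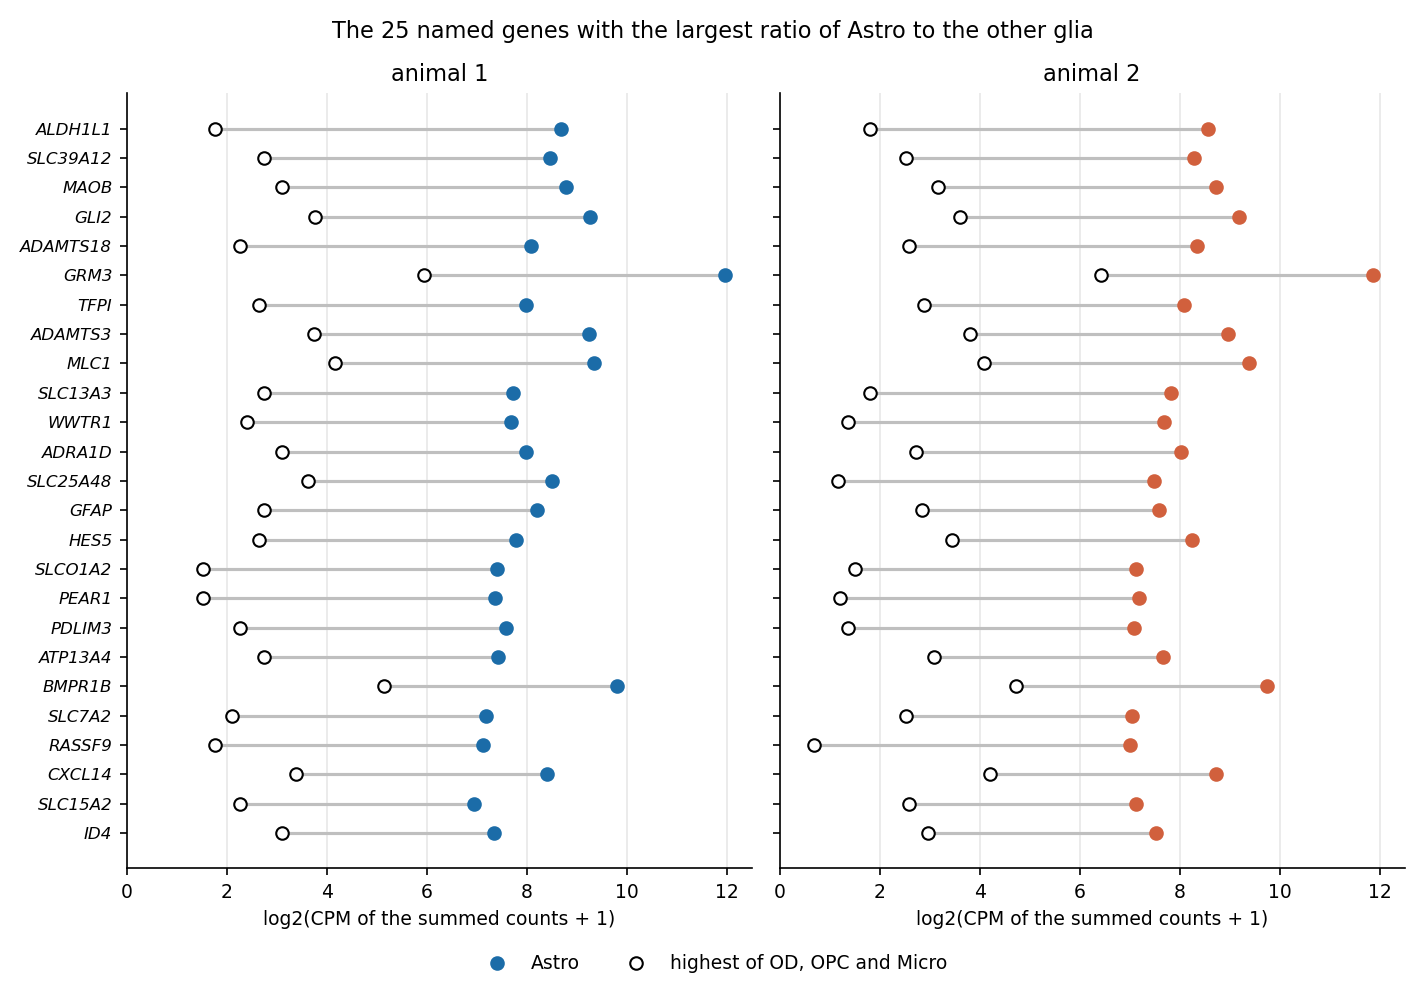
The 25 genes with a symbol and the largest ratio of Astro to the highest of OD, OPC and Micro, ranked by the smaller ratio of the 2 animals. Filled points are Astro and open points the highest other subclass, as log2(CPM + 1), with animal 1 left and animal 2 right, and the points lie apart for each gene in both animals.

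The 10 leading genes in the other direction were present in OD, OPC and Micro and low in Astro. DOCK10, a guanine nucleotide exchange factor, had 36.2 and 17.4 CPM in Astro and at least 432 CPM in each of the other 3, a ratio of the lowest of them to Astro of 12 and 24.8. ARHGAP22, a GTPase-activating protein, had 11.1 and 8.9 CPM in Astro and a ratio of 11.1 and 13.2. CABLES1, a partner of cyclin-dependent kinases, had 42.8 and 22.3 CPM, and FSCN1, which bundles actin filaments, 7.99 and 3.64 CPM, with ratios of 10.4 and 17.4 and of 9.08 and 24.6. That Astro was the lowest of the 4 subclasses for these genes in both animals follows from how they were chosen. WIPF1, a partner of the actin regulator WASP, DNM3, a dynamin, and SCUBE1, a secreted protein, followed with 31.1 and 30, 129 and 92.7 and 10.3 and 7.69 CPM. KSR1, a scaffold of the RAS pathway, NAV3 and PIP5K1B, a lipid kinase, completed the list with ratios between 4.39 and 6.1. Endo, which this ranking did not use, was also low for some of them. DOCK10 had 61.8 and 17.3 CPM there, FSCN1 20.6 and 17.3 CPM, and ARHGAP22 and SCUBE1 0 and 17.3 CPM, from at most 3 UMIs each. DNM3 had 2041 and 1728 CPM in Endo, and the rest lay between 41.2 and 289 CPM.

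Genes of astrocyte functions were described by lists, which were chosen with earlier results of these data known. Their counts are read beside the 5.59% of all genes called higher and the median log2 ratios of -0.69 and -0.67. The filter takes the mean over Astro, OD, OPC and Micro. A gene near 0 outside Astro therefore passes only through its Astro level, and is then bound to be called higher. This holds for list members and for all genes alike, so the counts describe the lists and are no test of them. Of 7 genes of glutamate uptake and glutamine synthesis, 4 had a symbol and were compared, 3 were higher in Astro and 0 lower, with a median log2 ratio of 1.37 and 1.62. SLC1A2 had 15454 and 14791 CPM in Astro and 1252 and 1106 CPM in OPC, and its ratio was 12.3 and 13.4. SLC38A3, a glutamine exporter, had 128 and 132 CPM with a ratio of 3.07 and 3.02. GLUL, glutamine synthetase, was not called, because OD had 484 and 442 CPM beside 774 and 910.3 CPM in Astro, a ratio of 1.6 and 2.06. Against OPC it was 9.38 and 12.6 times as high. GLUL was also seen in 34.8 and 32.6% of OD nuclei at 1000 UMIs, compared with 49.9 and 56% of Astro nuclei.

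Of 6 genes listed under GABA uptake and breakdown, 5 were compared and 2 were higher, with a median log2 ratio of 0.85 and 1.11. MAOB, described above, was among the higher genes, but it is a monoamine oxidase and neither takes up GABA nor breaks it down. SLC6A11, the transporter GAT3 of astrocytes, had 394 and 348 CPM in Astro and 218 and 194 CPM in OPC, and with a ratio of 1.81 and 1.8 it missed the 2-fold rule in both animals. ABAT and ALDH5A1, the enzymes that break GABA down, had ratios of 1.36 and 1.47 and of 1.71 and 2.16. OPC was the next subclass for SLC6A11 and ABAT in both animals.

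Of 13 genes of potassium, water and ion balance, all had a symbol, 10 were compared, 7 were higher and 0 lower, with a median log2 ratio of 2.51 and 2.48, or 1.21 as the mean of the animals with Endo added. ATP1B2, a beta subunit of the sodium pump, had 111 and 142 CPM with a ratio of 6.7 and 7.88. SLC4A4, a sodium bicarbonate cotransporter, had 1934 and 1729 CPM with a ratio of 15.8 and 12.9. DTNA, a part of the complex that anchors AQP4, had 2312 and 2377 CPM with a ratio of 2.46 and 2.33. These 3 genes were highest in Astro of both animals. KCNJ10, the inward rectifier Kir4.1, had 76.4 and 98.4 CPM in Astro and 43 and 35.9 CPM in OD, and its ratio of 1.78 and 2.74 passed 2-fold in animal 2 alone. KCNJ16, its partner Kir5.1, had 0.285 and 1.21 CPM in Astro, below the 9.48 and 9.33 CPM of OPC, and TRPV4, a cation channel, had no UMI in Astro, which allows up to 0.856 and 1.21 CPM. HEPACAM, an adhesion protein that binds MLC1, and DAG1, dystroglycan, had ratios between 1.66 and 1.87.

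Of 7 gap junction genes, 4 were compared and 2 were higher, GJA1 and GJB6, with a median log2 ratio of 1.41 and 1.97, or -0.70 as the mean of the animals with Endo added. GJB6, connexin 30, had 36.2 and 62.3 CPM with a ratio of 6.4 and 13. GJB2, connexin 26, had 9.7 and 17 CPM in Astro and at most 2.49 CPM elsewhere, and was too low to be compared. GJB1, a connexin of oligodendrocytes, had 21.1 and 24.1 CPM in OD and 2.28 and 1.62 CPM in Astro. GJA1, GJB6 and GJB2 were thus highest in Astro, and GJB1 in OD. TJP1, a scaffold of tight and gap junctions, had 379.9 and 372 CPM in Astro and 344 and 316 CPM in OPC.

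**Figure D3:**
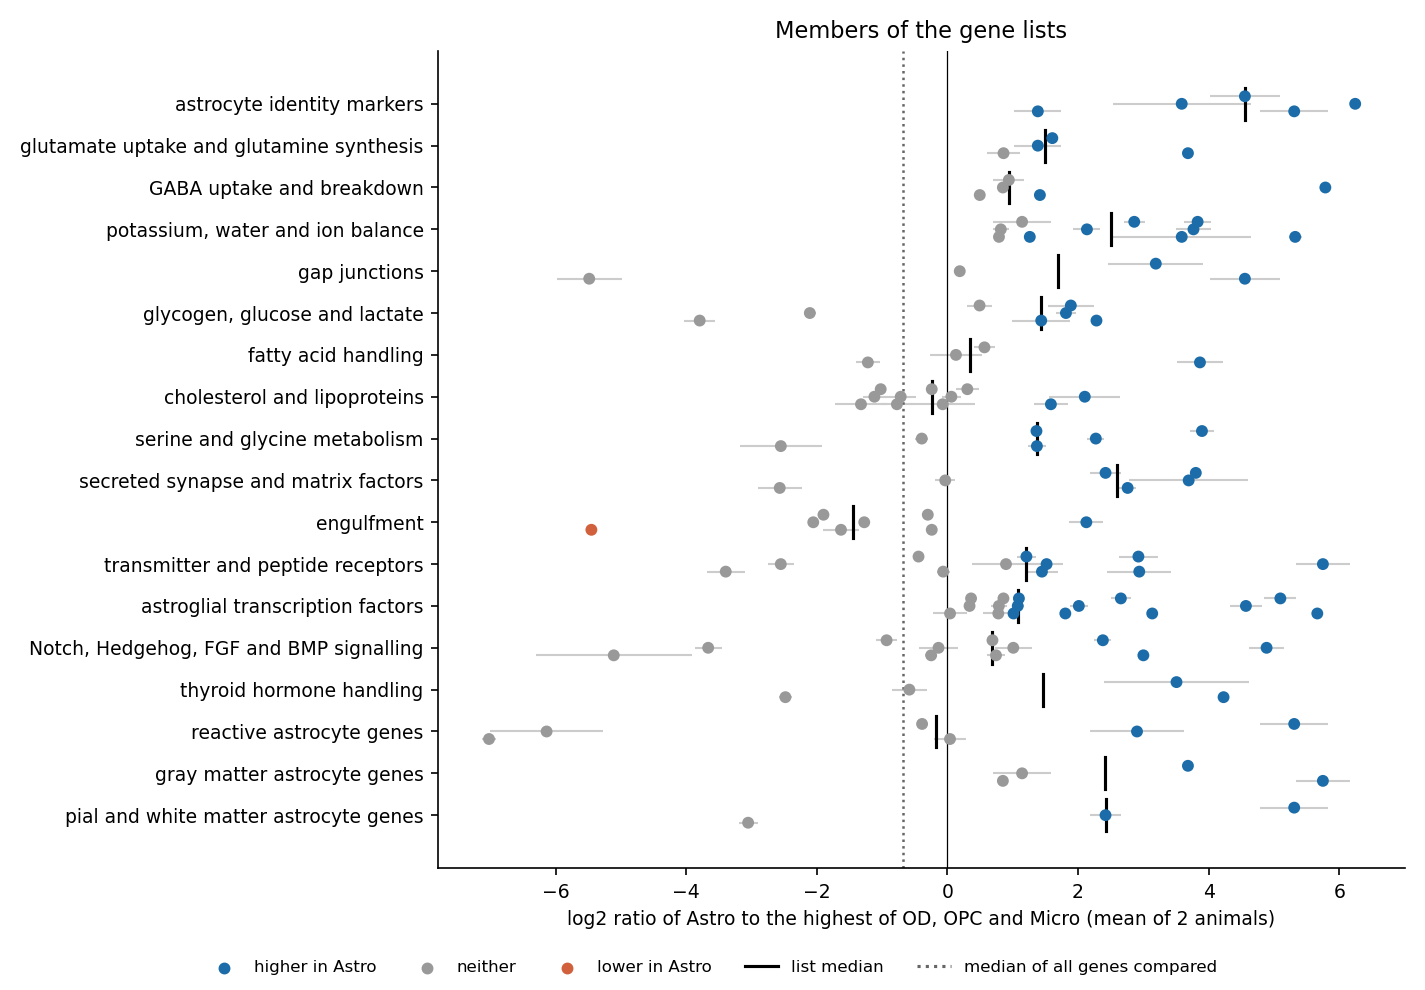
Members of 18 gene lists that passed the filter on low values, by their log2 ratio of Astro to the highest of OD, OPC and Micro, as the mean of 2 animals with the SD as a grey line. Vertical bars are list medians and the dotted line is the median of all genes compared, at -0.69 and -0.67 in the 2 animals. The medians of all lists but engulfment lie to its right.

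Metabolic genes were mixed. Of 14 genes of glycogen, glucose and lactate, 7 were compared and 4 were higher, with a median log2 ratio of 1.12 and 1.71, or 0.49 as the mean of the animals with Endo added. PYGB, a glycogen phosphorylase, had 668 and 586 CPM with a ratio of 5.08 and 4.66, LDHB, a lactate dehydrogenase subunit, 129 and 129.9 CPM with 3.79 and 3.26, and ALDOC, aldolase C, 86.1 and 94.3 CPM with 2.18 and 3.37. SLC2A1, the glucose transporter GLUT1, had 94.4 and 107 CPM in Astro and a ratio of 3.12 and 4.41, but Endo, where GLUT1 carries glucose across the vessel wall, had 1072 and 726 CPM. GBE1, the glycogen branching enzyme, was lower in Astro than in OD, with 49.9 and 47.8 CPM beside 206 and 215 CPM, and PFKFB3, a regulator of glycolysis, lower than in Micro, with 26 and 25.9 CPM beside 404 and 320.5 CPM.

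Of 10 genes of serine and glycine metabolism, 6 were compared and 4 were higher, with a median log2 ratio of 1.32 and 1.41. PHGDH, PSAT1 and PSPH, the enzymes of serine synthesis from glycolysis, had 191 and 220.2, 151 and 158 and 77 and 78.1 CPM. Their ratios were 2.42 and 2.77 for PHGDH, 5.15 and 4.53 for PSAT1 and 13.6 and 16.3 for PSPH, with OPC as the next subclass for the first 2. GLDC, which cleaves glycine, had 759 and 724 CPM with a ratio of 2.59 and 2.56. All 3 enzymes of the pathway were higher in Astro of both animals. SLC6A9, the glycine transporter GLYT1, was instead higher in OD, with 107 and 73.3 CPM beside 13.4 and 17 CPM in Astro.

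Of 18 genes of cholesterol and lipoproteins, 11 were compared, and 2 were higher, LRP4 with a ratio of 5.61 and 3.3 and HMGCS1 with 3.41 and 2.64. The list's median log2 ratio was -0.25 and -0.43. APOE, the lipoprotein of the brain, had 1381 and 2096 CPM in Astro, above OD (217 and 298 CPM) and OPC (194 and 249 CPM) and below Micro (2885 and 4136 CPM). ABCA1, the exporter that loads it with lipid, had 332 and 342 CPM in Astro and 396 and 400.2 CPM in Micro. SCD, SQLE and INSIG1, genes of sterol and fatty acid synthesis, were highest in OD of both animals. Of 8 genes of fatty acid handling, 4 were compared and 1 was higher, ACSBG1, an acyl-CoA synthetase, with 667 and 587 CPM and a ratio of 17.4 and 12.3. FABP7, a fatty acid binding protein, had 20.3 and 21 CPM in Astro and 43.1 and 53.5 CPM in OPC. Of 8 genes of thyroid hormone handling, 4 were compared and 2 were higher. SLCO1C1, the thyroxine transporter, had 637 and 668 CPM with a ratio of 18.7 and 18.8, and CRYM, which binds the hormone in the cell, 116 and 183 CPM with 6.62 and 19.6. With Endo added the median log2 ratio of the thyroid list, as the mean of the animals, went from 1.45 to 0.10.

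Of 14 secreted factors that act on synapses or matrix, 9 had a symbol and 6 were compared, of which 4 were higher and 0 lower, with a median log2 ratio of 2.55 and 2.63, or 0.51 as the mean of the animals with Endo added. SPARC had 408 and 365 CPM, SPON1 616 and 654 CPM, GPC4, a glypican that promotes synapses, 125 and 129 CPM and TNC, tenascin C, 108 and 101 CPM. Their ratios ran from 4.76 to 20.2, while SPARC, a matrix protein, was also present in Endo with 309 and 467 CPM. BCAN, brevican, was higher in OPC (730.0 and 818 CPM) than in Astro (145 and 117 CPM), and CSPG5 was close to equal, with 366 and 429 and 385 and 389.8 CPM. The thrombospondin genes THBS1, THBS2 and THBS4 did not exceed 2.49 CPM in any of the 4 subclasses.

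Of 9 genes of engulfment, 8 were compared, with 1 higher and 1 lower, and the median log2 ratio was -1.37 and -1.54. GULP1, an adaptor of the pathway, had 2232 and 2386 CPM in Astro with a ratio of 3.85 and 4.96. MERTK, a receptor kinase for dying cells, had 329 and 396 CPM in Astro, 7.46 and 11.4 times OPC, and 1233 and 1469 CPM in Micro. MEGF10, an engulfment receptor of astrocytes, had 165 and 155 CPM in Astro beside 209.5 and 185 CPM in OD and 149 and 130.0 CPM in OPC, so its levels lay close together in these 3 subclasses. GAS6, the ligand of MERTK and AXL, was the lower gene, with 3.14 and 2.02 CPM in Astro and 141 and 86.1 CPM in Micro.

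Of 20 receptors for transmitters and peptides, 11 were compared and 6 were higher, with a median log2 ratio of 1.27 and 1.32, or -0.25 as the mean of the animals with Endo added. Beside GRM3, ADRA1A, an alpha-1 adrenergic receptor, had 317 and 328 CPM in Astro and 147 and 132 CPM in OPC, and EDNRB, an endothelin receptor, 48.5 and 48.6 CPM with a ratio of 6.02 and 9.76. S1PR1, a receptor for sphingosine phosphate, had 37.1 and 42.1 CPM, GPR37L1 131 and 168 CPM, and ITPR2, the calcium release channel of astrocytes, 813 and 812 CPM with a ratio of 3.24 and 2.53. ADORA1, an adenosine receptor, was higher in OD, and ADGRV1 in OPC and Micro.

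Of 26 astroglial transcription factors, 23 had a symbol, 16 were compared and 10 were higher, with a median log2 ratio of 1.07 and 1.10. Beside HES5, GLI2 and ID4, SOX9 had 48.8 and 42.9 CPM with a ratio of 8.62 and 8.97, RFX4 166 and 183 CPM with 3.77 and 4.32, PPARA 65.6 and 54.6 CPM with 3.48 and 3.51, and RORB 538 and 444 CPM with 6.79 and 5.85. RORA and DBX2 were also called, with ratios between 2 and 2.18, next to OPC. SOX9 and HES5 were near 0 in OD and Micro of both animals. NFIA, NFIB, NFIX and ZBTB20 were shared among the glia, with ratios between 0.906 and 1.83. LHX2, PAX6 and EMX2 fell under the filter on low values, with 35.4 and 28.7, 18.3 and 15 and 12.3 and 9.71 CPM in Astro and at most 4.98 CPM in OD, OPC and Micro.

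Of 17 genes of Notch, Hedgehog, FGF and BMP signalling, 11 were compared and 3 were higher, BMPR1B, FGFR3 and EGFR, with a median log2 ratio of 0.64 and 0.73. FGFR3, a receptor for fibroblast growth factors, had 102 and 86.6 CPM with a ratio of 8.28 and 7.74, and EGFR, the receptor for epidermal growth factor, 375 and 359 CPM with 4.88 and 5.56. NOTCH1 had 163 and 158 CPM in Astro and 104 and 95.7 CPM in Micro, while DLL1, a ligand of Notch, had 6.56 and 1.62 CPM in Astro and 126 and 101 CPM in OD. NOTCH1 was thus counted in Astro and DLL1 mainly in OD and OPC. PTCH1, the receptor for Hedgehog, had 136 and 106 CPM in Astro, and HHIP, an inhibitor of Hedgehog, 32.2 and 28.7 CPM in Astro and 369 and 403 CPM in OD.

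Of 20 genes linked to reactive astrocytes, 11 had a symbol, 6 were compared and 2 were higher, with a median log2 ratio of -0.29 and -0.06, which as the mean of the animals turned to 0.033 with TMM scaling and went to -1.26 with Endo added. These were GFAP and CP, ceruloplasmin, which had 201 and 193 CPM with a ratio of 10.6 and 5.26. VIM, vimentin, had 5.7 and 0.405 CPM in Astro, SOCS3 0.285 and 0 CPM, and HSPB1 had no UMI in Astro of either animal. C3, a complement gene, had 0.856 and 1.21 CPM in Astro and 106 and 166 CPM in Micro. Of 8 genes of gray matter astrocytes, 4 were compared, and SLC1A2 and GRM3 were higher. Of 9 genes of pial and white matter astrocytes, 3 were compared, and GFAP and TNC were higher, with a median log2 ratio, as the mean of the animals, of 2.42, or 0.89 with Endo added. MYOC, a gene of astrocytes at the pial surface, had no UMI in Astro. The limits given for TRPV4 hold for HSPB1 and MYOC too. CRYAB, of the same list, was higher in OD, with 68.3 and 75.6 CPM beside 8.84 and 8.5 CPM.

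In Endo 3 counts correspond to 61.8 and 51.8 CPM in the 2 animals, so with Endo added no ratio can exceed the Astro level over these values. The median over all genes compared was then -1.42 and -1.31. As means of the animals, the median log2 ratios of the other lists were then 2.10 for the identity markers, 1.29 for glutamate uptake, 0.85 for GABA, 0.88 for serine and glycine, 0.62 for transcription factors, 0.56 for Notch, Hedgehog, FGF and BMP signalling, 0.13 for fatty acids, -0.67 for cholesterol, -1.55 for engulfment and 2.29 for gray matter genes.

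Markers of other cell types were measured in Astro as a check on RNA from elsewhere. The 5 pan-neuronal markers with a symbol summed to 373 and 446 CPM in Astro, which is 7.68% and 9.54% of their level in neurons, against 466 and 636 CPM in OD, 534 and 635 CPM in Micro and 1222 and 1367 CPM in OPC. The glutamatergic markers stood at 4.94% and 8.04% of neurons and the GABAergic markers at 1.29% and 1.79%, and the 3 ependymal markers summed to 1.14 and 0.810 CPM. The 4 oligodendrocyte markers summed to 353 and 191 CPM, or 2.66% and 1.43% of OD. The 4 OPC markers summed to 4.56 and 0.810 CPM and the 6 microglial markers to 10.3 and 8.1 CPM, with CSPG4, OLIG2, GPR17, C1QA and P2RY12 under 3 counts in Astro of both animals. The 4 endothelial markers summed to 53.6 and 67.6 CPM, nearly all of it FLT1, at 1.22% and 1.64% of Endo, with CLDN5 and CDH5 under 3 counts. Relative to its own type, the pan-neuronal sum was the largest of these, and it was lower in Astro than in OD, OPC or Micro. Its part in the levels of genes that neurons also use was not tested.

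PDGFRB, a receptor known for pericytes, stood apart in these lists. It had 112 and 102 CPM in Astro and at most 4.27 CPM in OD, OPC and Micro, a ratio of 19.8 and 21.2. It had no UMI in Endo, which allows up to 61.8 and 51.8 CPM there. It was seen in 9.43 and 8.46% of Astro nuclei at 1000 UMIs and in 0% and 0.0566% of OD nuclei. The other mural and leptomeningeal genes RGS5, KCNJ8, DCN and COL1A1 were under 3 counts in Astro of both animals. LUM, the remaining gene, had 3.42 and 3.24 CPM.

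In profile, Astro lay closest to OPC. Across the 9014 genes, Spearman's correlation of log2(CPM + 1) between Astro and OPC was 0.703 and 0.700, between Astro and OD 0.584 and 0.601, between Astro and Endo 0.548 and 0.548, and between Astro and Micro 0.474 and 0.492. These are correlations across genes of the same libraries, and genes are not independent replicates. The sums differ in depth, and Endo has the smallest. With sums thinned to the same total, or with genes of at least 50 CPM only, OPC stayed first and Micro last, while Endo came before OD. The Astro profiles of the 2 animals correlated at 0.979. In pairs, 947 genes (10.5%) were at least 2-fold higher in Astro than in OPC in both animals and 1163 (12.9%) lower. Against OD, 1627 genes (18%) were higher and 1075 (11.9%) lower, and against Micro 1446 (16%) higher and 1505 (16.7%) lower.

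The annotation divides Astro into the types Astro_1, Astro_2 and Astro_3, with 896, 754 and 439 nuclei. Astro_1 held 37.7% of Astro nuclei in animal 1 (exact 95% interval 35.0 to 40.4%) and 51.0% in animal 2 (47.5 to 54.5%). Astro_2 held 37.2% (34.5 to 39.9%) and 34.4% (31.2 to 37.8%), and Astro_3 25.1% (22.8 to 27.6%) and 14.6% (12.2 to 17.2%). Astro_1 was the larger type in animal 2 and Astro_3 in animal 1, relative to the other animal. These intervals cover counting error over nuclei, and each animal is 1 sample, so the difference between animals was not tested. Between the libraries of an animal, 1 of 6 two-sided Fisher's exact tests had an unadjusted p under 0.05, Astro_2 in animal 1 (p = 0.0486), and after Benjamini-Hochberg adjustment the lowest p was 0.206. The median depth was 2277 and 2691 UMIs in Astro_1, 2756 and 2813 in Astro_2, and 2607 and 3167 in Astro_3. At 1000 UMIs 29.5% of Astro_1, 20.4% of Astro_2 and 22.1% of Astro_3 nuclei had at least 3 of the 5 identity markers, beside at most 0.149% of OD, OPC, Micro or Endo nuclei. At least 1 marker was seen in 886 of 896, 718 of 754 and 428 of 439 nuclei of the types, a looser measure that 56.2% of Micro and 31.6% of OPC nuclei also met.

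Few genes separated the types, at the rule of at least 50 CPM in the higher type and a 2-fold ratio in both animals. Astro_1 was above Astro_2 in 35 of 3162 genes (1.11%) and above Astro_3 in 0 of 3162 (0%). Astro_2 was above Astro_1 in 21 of 3153 genes (0.666%) and above Astro_3 in 25 (0.793%). Astro_3 was above Astro_1 in 2 of 3036 genes (0.0659%) and above Astro_2 in 16 (0.527%). The types come from clusters of the same counts, so these counts carry no test. They also moved with the processing. Thinned to 1000 UMIs, Astro_3 was above Astro_2 in 31 genes and Astro_1 above Astro_3 in 4, and all 6 counts were larger with 1 animal left out.

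The genes higher in Astro_2 were mostly those highest in OD. Of the 19 genes above both other types, 18 were highest in OD among the 5 non-neuronal subclasses in both animals. MBP, myelin basic protein, had 579 and 322 CPM in Astro_2 beside 64.4 and 38.3 CPM in Astro_1 and 60.6 and 34.5 CPM in Astro_3. PEX5L had 497 and 324 CPM beside 54.1 and 59.5 CPM in Astro_1, and ST18, a transcription factor, 119 and 109 CPM beside 15.4 and 6.81 CPM. In OD these 3 genes had 10759 and 10970.2, 8859 and 8716 and 2361 and 2592 CPM. UGT8, an enzyme of myelin lipids, BIN1, PLCL1, PTPRK, UNC5C, UBASH3B, HS3ST5, TMEFF2, SLC24A2 and SYNJ2 were also among the genes the rule names, with ratios of Astro_2 to another type between 2.75 and 14.5.

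These genes moved with doublet calls. Scrublet, which scores nuclei by their likeness to simulated pairs of nuclei, had called 71 of 754 Astro_2 nuclei doublets (9.42%), beside 4 of 896 (0.446%) in Astro_1 and 2 of 439 (0.456%) in Astro_3. The 71 nuclei had a median of 4499 UMIs, beside 2671 in the other Astro_2 nuclei, and their oligodendrocyte markers summed to 4034 CPM, beside 51.6 CPM. They held 94.2% of the MBP UMIs of Astro_2, 92.3% of PEX5L, 92.5% of ST18 and 94.8% of MOG. Without nuclei called doublets MBP had 33.5 and 31.2 CPM in Astro_2, 39.1 and 38.3 CPM in Astro_1 and 21.2 and 34.5 CPM in Astro_3, and 0 of the 19 genes stayed at least 2-fold above Astro_1, or above Astro_3, in both animals. Across all genes, 1 gene was then above Astro_1 and 3 above Astro_3. At 1000 UMIs, with called doublets kept, MBP was seen in 8.67 and 6.76% of Astro_2, 3.75 and 3.37% of Astro_1 and 1.56 and 6.72% of Astro_3 nuclei. It was seen in 6.72 and 8.79% of OPC nuclei and 18.6 and 19.8% of Micro nuclei, so the share in Astro_2 lay near that in OPC and below that in Micro.

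The 10 named genes higher in Astro_1 than in Astro_2 kept a ratio of at least 2 in both animals without called doublets, apart from TRIL at 1.998 in animal 1. LTF, lactotransferrin, had 980.2 and 887 CPM in Astro_2, 2559 and 2549 CPM in Astro_1 and 2073 and 1904 CPM in Astro_3, and without called doublets the ratio of Astro_1 to Astro_2 was 2.66 and 2.86. APOE had 1939 and 3190.2 CPM in Astro_1, 797 and 658 CPM in Astro_2 and 1586 and 2079 CPM in Astro_3, and at 1000 UMIs it was seen in 79.2 and 87.5% of Astro_1 and 44.4 and 39.9% of Astro_2 nuclei. SLC3A2, an amino acid transporter subunit, had 115 and 137 CPM in Astro_1 and 44.7 and 30.4 CPM in Astro_2. For all 3 genes Astro_2 was the lowest type in both animals. GJB6, HES5, TTC39C, TRIL, TMEM204, TMEM126A and CEL were the other genes named by the rule, with ratios of Astro_1 to Astro_2 between 2.1 and 3.92. Of the 10 genes below both other types, 9 were highest in Astro among the subclasses, and without called doublets 10 stayed 2-fold below Astro_1 and 9 below Astro_3. CHST9, a sulfotransferase, was above Astro_2 in Astro_3, with 188 and 111 CPM beside 86.5 and 37.1 CPM.

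Of 88 genes of the astrocyte lists with at least 50 CPM in Astro_1 or Astro_2 of each animal, 40 were higher in Astro_1 in both animals by any amount and 27 in Astro_2, beside 766 and 1576 of the 3477 genes at that level. Called doublets were kept in these sums. Without them the identity markers of Astro_2 summed to 4417 and 3704 CPM, beside 4161 and 3543 CPM with them. The directions were not counted again without called doublets, so small differences are not read. GJA1 had 497 and 714 CPM in Astro_1, 279 and 211 CPM in Astro_2 and 369 and 441 CPM in Astro_3, and its ratio of Astro_1 to Astro_2 was 1.78 and 3.38. ATP1B2 had 139 and 204 CPM in Astro_1 and 81.6 and 63 CPM in Astro_2, a ratio of 1.7 and 3.24, and AQP4, with 215 and 254 CPM in Astro_1, 189.8 and 117 CPM in Astro_2 and 184 and 234 CPM in Astro_3, a ratio of 1.13 and 2.17. All 3 passed 2-fold in animal 2 alone, so none was called. GFAP ran the other way, with 447 and 237 CPM in Astro_2, 181 and 181 CPM in Astro_1 and 186 and 121 CPM in Astro_3, a ratio of Astro_2 to Astro_1 of 2.47 and 1.31. At 1000 UMIs GFAP was seen in 28.1 and 14.9% of Astro_2 and 14.2 and 16.6% of Astro_1 nuclei, so by this share the order held in animal 1 and turned in animal 2, and no order is read there. SLC4A4, a bicarbonate transporter, DTNA, a dystrobrevin, and ABCA1 were lower in Astro_1 too, with ratios of Astro_1 to Astro_2 of 0.798 and 0.841, of 0.898 and 0.908 and of 0.821 and 0.928. ALDH1L1 and HEPACAM were close to equal, with ratios of Astro_1 to Astro_2 of 1.09 and 1 and of 0.995 and 0.962.

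Astro_3 was set apart by 2 genes without a symbol. ENSMODG00000043112 had 4174 and 4547 CPM in Astro_3, 515 and 621 CPM in Astro_1 and 1285 and 971 CPM in Astro_2. ENSMODG00000033191 had 3065 and 2628 CPM in Astro_3, 454 and 464 CPM in Astro_1 and 476 and 201 CPM in Astro_2. Both were near 0 in OD, and at most 23.7 CPM in OPC. Among genes with a symbol, the ratio of Astro_3 to Astro_1 came nearest to the rule for ST3GAL1, a sialyltransferase, at 2.06 and 1.66, and in the other direction the ratio of Astro_1 to Astro_3 was 1.64 and 1.78 for PGM3 and 1.58 and 1.53 for KCNJ10.

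**Figure D4:**
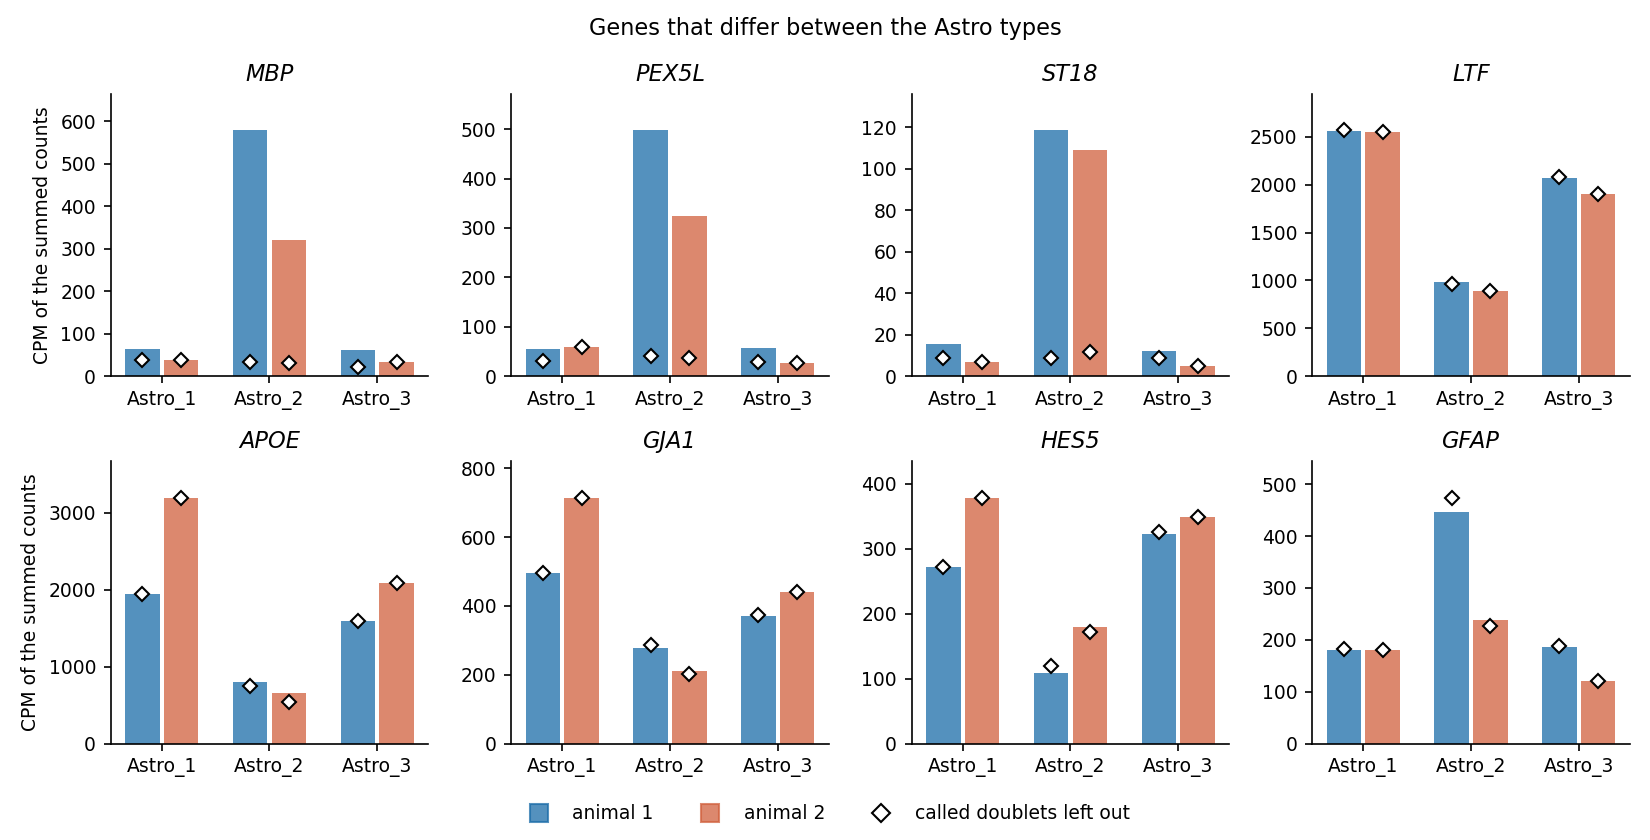
Level of 8 genes in the 3 Astro types, as CPM of the summed counts, with blue bars for animal 1, orange bars for animal 2 and white diamonds for the same sums without nuclei that Scrublet called doublets. MBP, PEX5L and ST18 stand out in Astro_2 as bars but not as diamonds, while the bars and diamonds of LTF, APOE, GJA1, HES5 and GFAP lie close together.

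The Astro nuclei of the 2 animals were set side by side without replicates of either. Of 6623 genes that reached 20 CPM in the higher animal, 68 (1.03%) were at least 2-fold higher in animal 1 with no overlap between libraries, and 19 (0.287%) in animal 2. Between libraries of 1 animal, 30 of 6660 genes differed at least 2-fold in animal 1 and 65 of 6593 in animal 2. These counts use sums of single libraries, which are shallower than those of an animal, and have no rule on overlap. The 2 kinds of count are therefore not like for like. With nuclei thinned to 1000 UMIs the counts were 141 and 94, and with at least 50 CPM 19 and 6. FERMT1, a protein of integrin adhesions, had 33.1 and 32.5 CPM in libraries 1A and 1B and 2.57 and 1.54 CPM in 2A and 2B, a ratio of 16.2. In OPC it had 7.11 and 0.622 CPM in animals 1 and 2. SNTB1, a syntrophin, had 294 and 348 CPM and 109 and 85.3 CPM in the 2 pairs of libraries, while in Micro, where it was also present, it had 351 and 319 CPM in animals 1 and 2. ACKR2, an atypical chemokine receptor, had 78.6 and 84.3 CPM and 31.6 and 23.8 CPM, and EPB41L4B 99.3 and 114 CPM and 47 and 33.8 CPM. The rule itself required that the libraries of the animals did not overlap. FXYD6, DNAH5, MTAP and CHST7 were the other named genes higher in animal 1, with ratios between 2.79 and 5.92.

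In animal 2, IRAG1, a target of cyclic GMP signalling, had 29.9 and 32.3 CPM in libraries 2A and 2B and 12.4 and 11 CPM in 1A and 1B, a ratio of 2.67. CDC42SE2, an effector of CDC42, had 78.7 and 78.4 CPM and 43.2 and 32 CPM, and PECR, a peroxisomal reductase, 49.6 and 64.5 CPM and 27.2 and 28.1 CPM. C12orf66, PBLD, ANTXR1, VIPR2, a receptor for vasoactive intestinal peptide, and ST3GAL2 were the other named genes, with ratios between 2.01 and 2.64. VIPR2 was 2-fold higher in animal 2 in OD and Micro as well, and in OPC it had 8.53 and 18.7 CPM. Of the 68 genes higher in animal 1, 31 reached 20 CPM in OPC of that animal, and 3 of these were 2-fold higher there too, beside 0.332% of the genes compared in Astro that reached that level in OPC. In OD the count was 3 of 24, beside 0.258% of genes, and in Micro 2 of 18, beside 2.35%. Of the 19 genes higher in animal 2, the counts were 1 of 5 in OPC, 2 of 6 in OD and 3 of 10 in Micro, beside 0.24%, 0.536% and 2.73% of genes.

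Of the identity markers, AQP4, ALDH1L1 and SLC1A3 had ratios of animal 1 to animal 2 between 0.978 and 1.1. GJA1 had 359 and 389.6 CPM in libraries 1A and 1B and 469.5 and 505 CPM in 2A and 2B, a ratio of animal 2 to animal 1 of 1.30. GFAP had 242 and 337 CPM in libraries 1A and 1B and 192 and 191 CPM in 2A and 2B, a ratio of 1.52. APOE had 1373 and 1389 CPM in 1A and 1B and 2008 and 2175 CPM in 2A and 2B, a ratio of animal 2 to animal 1 of 1.52. For GJA1, GFAP and APOE the libraries of the animals did not overlap and the ratio stayed under 2, but GFAP differed more between 1A and 1B than between 1A and either library of animal 2. Of other genes set side by side in the same way, MBP had 334 and 218 CPM in 1A and 1B and 126 and 152 CPM in 2A and 2B, a ratio of animal 1 to animal 2 of 1.96, and HOMER1 89.9 and 79.9 CPM and 151 and 168 CPM, a ratio of animal 2 to animal 1 of 1.88. The libraries did not overlap for these genes either. Nor did they for ALDH1L1, SLC1A3 and GLUL, at ratios of animal 1 to animal 2 of 1.09, 1.1 and 0.85. Lack of overlap is thus not particular to the genes with larger ratios, and its share over all genes was not counted. The types also differed in share between the animals, and the part of the types and of MBP in these differences was not tested.

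**Figure D5:**
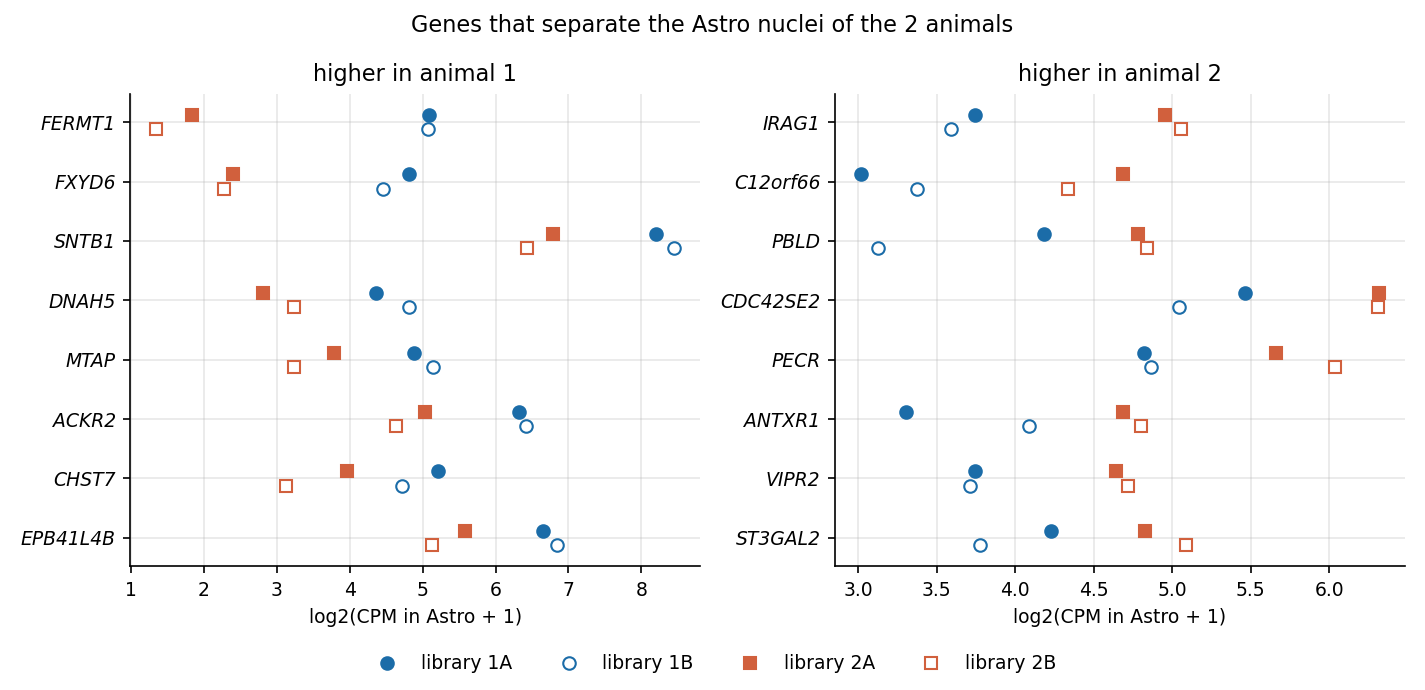
Levels in Astro of the 16 named genes that separated the animals, as log2(CPM + 1) in each of the 4 libraries, with circles for animal 1, squares for animal 2, filled for libraries A and open for libraries B. The left panel holds genes higher in animal 1, led by FERMT1 at a ratio of 16.2, and the right panel genes higher in animal 2, led by IRAG1 at 2.67.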

How the data were processed

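Nuclei of V1 of 2 adult opossums were analysed, in 4 libraries. The authors counted UMIs, with intronic reads, on the assembly ASM229v1 using an Ensembl annotation lengthened at the 3′ ends of genes, and deposited whole-number counts per gene and barcode. The submitters' processing notes name Cell Ranger 6.1.1, and the headers of the deposited matrices name 7.1.0. The authors kept nuclei by their numbers of genes and UMIs, called doublets with Scrublet, and clustered with Seurat. Class, subclass, type, Scrublet call and doublet score (a score that the authors deposited as a fraction from 0 to 1) were taken from their metadata. Nuclei hold unspliced RNA, which intronic reads count, so levels need not follow those of whole cells.

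Raw counts were summed per animal and subclass or type and scaled to counts per 1000000 (CPM), with Python 3.11.15, numpy 2.4.6, pandas 2.3.3 and scipy 1.17.1. Of 30800 genes, 11590 had a symbol in the files, and 9014 had a mean of at least 10 CPM over Astro, OD, OPC and Micro in both animals. A call needed a 2-fold ratio in both animals, with at least 3 counts in the denominator. Named genes were the members of the lists, the 25 highest and 10 lowest by the smaller ratio of the animals (at least 50 CPM), 10 genes per direction for each pair of types and 8 per direction between animals. Shares have exact (Clopper-Pearson) binomial intervals, and Fisher's exact test was used only between libraries of an animal. Deposited doublet calls were kept in the main values and removed as an alternative. The other alternatives were edgeR 4.0.16 TMM factors (R 4.3.3), thinning, other filters and folds, equal weight per nucleus, single libraries and single animals. The ratio and call procedure was tested on simulated data. Members and lists were chosen with earlier results of these data known. A few genes of the lists are counted with them but are not reported here by name.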

Additional observations from a re-analysis of the deposited data

Results flagged for a closer look

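Nuclei that the annotation left out of every subclass also carried astrocyte markers. Of 276 non-neuronal nuclei that the authors set aside as ambiguous, 49 had UMIs of at least 3 of the 5 identity markers (17.8%, exact 95% interval 13.4 to 22.8%), with 11, 18, 12 and 8 in libraries 1A, 1B, 2A and 2B. Their median depth was 1809 UMIs, Scrublet had called 2.04% of them doublets, and their astrocyte identity markers summed to 4723 CPM beside 482 CPM of pan-neuronal markers. Of 705 non-neuronal nuclei set aside as doublets, 129 had at least 3 of the markers (18.3%, 15.5 to 21.4%), with 27, 28, 33 and 41 in the 4 libraries. Their median depth was 10544 UMIs, 98.4% had been called doublets, and their pan-neuronal markers summed to 3514 CPM beside 1372 CPM of astrocyte identity markers. Both shares lay above the 11 of 6178 (0.178%) in labelled OD, OPC, Micro and Endo nuclei, and below the 1387 of 2089 (66.4%) in labelled Astro nuclei. These shares depend on depth and were taken without thinning. The median depth was 1823 UMIs in all ambiguous nuclei and 8445 in all nuclei set aside as doublets. It was 1959 in the labelled OD, OPC, Micro and Endo nuclei and 2620 in Astro. The left-out nuclei are data that the comparisons above do not use, and no test was run on them.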

How the results depend on the processing

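Counts of genes within 1.5 times the reported count, and other values within 1 SD of the 2 animals, were taken as unmoved. With 2 animals, a share, correlation, median or ratio with 1 animal left out lies within 1 SD by construction. Such values are part of the tallies that follow and say nothing on how stable a result is. Of the counts, shares and correlations, 60 values under an alternative were within these limits and 36 were not; of the list medians and single genes, 170 were, 57 were not and 3 changed sign. The limits are wide, as with no filter on low values 728 genes were higher in place of 504. With Endo added, 211 genes were higher and 57 lower in Astro, all among the 504 and 123 of the report, and the median log2 ratios of the gap junction list and of the receptor list turned to -0.70 and -0.25. A mean of at least 50 CPM left 233 higher genes, and a 4-fold rule left 253 higher and 37 lower. With edgeR's TMM factors the median of all genes compared was -0.60 and -0.49 in the 2 animals, and that of the reactive list turned to 0.033. With 1 animal left out, 609 to 615 genes were higher and 226 to 257 lower, since a call then needs 1 animal. Spearman's correlation fell with genes of at least 50 CPM to 0.323 (OD), 0.529 (OPC), 0.209 (Micro) and 0.406 (Endo), and with sums thinned to the same total it was 0.442, 0.522, 0.372 and 0.471. Without called doublets the share of Astro_2 was 33.6%, and 1 gene was higher in Astro_2 than in Astro_1 and 3 than in Astro_3. Thinned to 1000 UMIs, 4 genes were higher in Astro_1 than in Astro_3, 5 in Astro_3 than in Astro_1 and 31 in Astro_3 than in Astro_2, and 141 and 94 genes were higher in animals 1 and 2. The cause was not tested. With at least 50 CPM the counts between animals were 19 and 6. With 1 animal left out, counts between types ran from 48 to 146 (Astro_1 over Astro_2), 3 to 33 (Astro_1 over Astro_3), 39 to 77 (Astro_2 over Astro_1), 86 to 91 (Astro_2 over Astro_3), 4 to 18 (Astro_3 over Astro_1) and 43 to 98 (Astro_3 over Astro_2). Subclasses and types were compared within each animal, so every ratio pairs values of 1 animal. The depth of Micro and above all of Endo limits ratios of genes near 0 there.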
